A study of Mus musculus with 6 samples.

Results

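Kinesins are motor proteins that walk along microtubules or take them apart, using the energy of ATP. The mouse kinesin genes described here are those whose array symbol is Kif followed by digits and an optional letter, taken from probe sets annotated with exactly 1 gene symbol. This gave 37 genes on 99 probe sets, of 18193 named genes on the array. They were divided by textbook role into 12 mitotic kinesins, 9 cargo kinesins, 9 kinesins of the cilium and 7 others. Kif2a, which acts in neurons and in spindles, was placed among the others. A probe set was measured well enough to test when 3 or more of the 6 arrays read above log2 4, a chosen limit and not a detection limit. By this filter 27 genes were tested: 9 mitotic, 8 cargo, 5 cilium and 5 others.

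Expression was measured on 6 arrays from 3 mice. The animals carried Grem1;TdTomato, a fluorescent reporter genotype named after Gremlin 1, a secreted BMP antagonist, were bred against C57BL/6J, were labelled male, were 6 to 8 weeks old and had all received tamoxifen by mouth. From the digested marrow of each mouse 2 fractions were sorted: Grem1+, for which the labels name Grem1 as the sorted marker and nothing more, and a Grem1- fraction that had not recombined and was gated free of CD45, CD31 and Ter-119 staining, the antigens of blood, endothelial and erythroid cells. The labels state that gate for Grem1- alone and do not say what drives the recombinase. All arrays had medians between 3.74 and 3.81 (log2).

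The fractions did not follow their labels in every respect. Ptprc, the gene of the gated antigen CD45, stood at 12.13, 11.78 and 12.37 in Grem1- and at 7.29, 9.61 and 10.56 in Grem1+ of mice 1, 2 and 3. This probe set did not pass (limma adjusted p = 0.0603 over probe sets). The other passing Ptprc probe set read 9.38, 8.37 and 8.81 against 2.53, 3.30 and 3.71, so that no Grem1+ array exceeded log2 4 (limma adjusted p = 0.0106 over probe sets). For this probe set the filter fixed the direction, though not its size. The median over pan-haematopoietic markers lay between 9.79 and 10.70 on the Grem1- arrays and between 6.01 and 6.61 on the Grem1+ arrays. For chondrocyte markers it lay between 6.44 and 7.14 and between 10.96 and 11.04. Grem1 itself was at 4.49, 4.14 and 8.61 in Grem1+ and at 3.69, 3.75 and 3.70 in Grem1-. Its difference lay mostly in mouse 3 and did not pass (limma adjusted p = 0.245 over probe sets). All animals were labelled male, but mouse 3 gave Xist, the RNA that coats the inactive X chromosome, at 11.04 in Grem1- and 10.60 in Grem1+, while no array of mice 1 and 2 exceeded 2.99. Counts without mouse 3 are therefore given for the mitotic kinesins, their spindle partners and the adaptors.

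Mitotic kinesins are made in dividing cells, where they build the spindle, move chromosomes and cut the cell in 2 at its midzone. Their genes are switched on late in the cell cycle, and many carry a CCAAT box, bound by NF-Y, and a cell cycle genes homology region (CHR), bound by the DREAM and MuvB complexes. Cargo kinesins haul vesicles and organelles in dividing and resting cells alike. The kinesin-2 motors carry intraflagellar transport trains into the primary cilium, the antenna through which cartilage and bone cells receive Hedgehog signals.

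The start regions of the mitotic kinesins are shown first, since all 9 tested had a lower mean in Grem1+ and 4 of them passed the test. RefSeq promoter windows (GRCm38.p6, 250 bases before to 50 after a transcript start) were found for 31 of the 37 kinesins. The CHR letters TTTGAA, on either strand, stood in 9 of 11 mitotic kinesins (81.8%), in 2 of 15 cargo or cilium kinesins (13.3%) and in 20.2% of all 27025 genes with a window. CCAAT, on either strand, stood in 7 of 11 mitotic kinesins (63.6%), in 6 of 15 cargo or cilium kinesins (40%) and in 41.1% of all genes. These motifs can share at most 1 letter, and both were found in 6 of 11 mitotic kinesins (54.5%) against 7.97% of all genes. A match of letters is a description and not a bound site. The 200 bases before the start are given 5′ to 3′ on the gene's strand for 3 mitotic kinesins that were lower in Grem1+ and for Kif26b, which was higher, with CCAAT or its complement ATTGG and TTTGAA or its complement TTCAAA in capitals. They lie at chr19:37376182-37376381 on the plus strand for Kif11, chr9:61946800-61946999 on the minus strand for Kif23, chr11:102925125-102925324 on the minus strand for Kif18b and chr1:178528925-178529124 on the plus strand for Kif26b.
Kif11: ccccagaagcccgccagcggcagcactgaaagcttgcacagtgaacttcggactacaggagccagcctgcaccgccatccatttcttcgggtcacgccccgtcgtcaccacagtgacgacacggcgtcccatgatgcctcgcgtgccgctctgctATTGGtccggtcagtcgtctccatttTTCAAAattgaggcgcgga
Kif23: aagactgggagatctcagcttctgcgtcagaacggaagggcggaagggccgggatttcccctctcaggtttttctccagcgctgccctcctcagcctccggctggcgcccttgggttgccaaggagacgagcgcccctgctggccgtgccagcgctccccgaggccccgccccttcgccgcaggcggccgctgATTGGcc
Kif18b: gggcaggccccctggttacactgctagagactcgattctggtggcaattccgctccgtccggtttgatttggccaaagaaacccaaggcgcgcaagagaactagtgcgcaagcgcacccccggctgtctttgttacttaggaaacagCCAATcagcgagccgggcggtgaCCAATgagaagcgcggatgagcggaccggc
Kif26b: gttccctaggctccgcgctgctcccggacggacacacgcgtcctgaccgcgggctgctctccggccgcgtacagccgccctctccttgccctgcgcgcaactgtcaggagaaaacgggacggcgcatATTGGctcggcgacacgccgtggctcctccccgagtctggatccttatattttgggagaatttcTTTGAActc
In Kif11 the CCAAT match began 45 bases and the TTTGAA match 19 bases before the start. Kif18b had CCAAT at 53 and 30 bases before the start, and its TTTGAA lay just past it, at base 4 of the transcript. Kif23 likewise had CCAAT at 7 bases before the start and TTTGAA at base 3 of the transcript. Kif26b also held both motifs, at 73 and 9 bases before its start. Kif20a, the other mitotic kinesin that passed as lower, is not printed, and no match to either motif was found for it. Whether it lacked a window or a match is not told apart here.

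The comparison asked which kinesins distinguish Grem1+ cells from the other marrow fraction of the same mouse. Every tested mitotic kinesin had a lower mean in Grem1+, and 4 of the 9 passed the test as lower: Kif11, Kif23, Kif20a and Kif18b. The direction of Kif2c was fixed by the filter, which it passed through its Grem1- arrays alone. None of the 13 tested cargo or cilium kinesins passed in either direction, although 15 of the 27 kinesins had an unadjusted p under 0.05, as did 3666 of all 10151 genes. Among the 5 others, Kif26b and Kif21a rose by more than 5 on the log2 scale. The test was limma with the mouse as a block, adjusted over all 10151 genes tested at a threshold of 0.05, and differences are Grem1+ minus Grem1-. In that test 11.7% of all genes were higher and 8.51% were lower. The median difference was -2.06 over the 9 mitotic kinesins, 0.36 over the 13 cargo or cilium kinesins and 0.04 over all genes. By mouse, the mitotic median was -2.15, -2.82 and -1.72 and the cargo or cilium median 0.69, 0.17 and 0.29. The class medians had opposite signs in each of the 3 mice, but single members overlapped: in mouse 2 Kif16b, a cargo kinesin, differed by -5.27, more than any mitotic kinesin. The difference between the classes was not tested. Without the block 7 mitotic kinesins were lower, Kif20b, Kif2c and Kif4 being the added ones. Without the block and without mouse 3, whose arrays carried Xist, 3 were lower (Kif11, Kif15 and Kif2c), and the calls of Kif23, Kif20a and Kif18b were lost (limma adjusted p = 0.0561, 0.0856 and 0.0895). When 1 mouse was dropped and the block stayed, no call was left on the whole array in limma (0 genes), with 2881 to 3018 genes at an unadjusted p under 0.05.

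**Figure D1:**
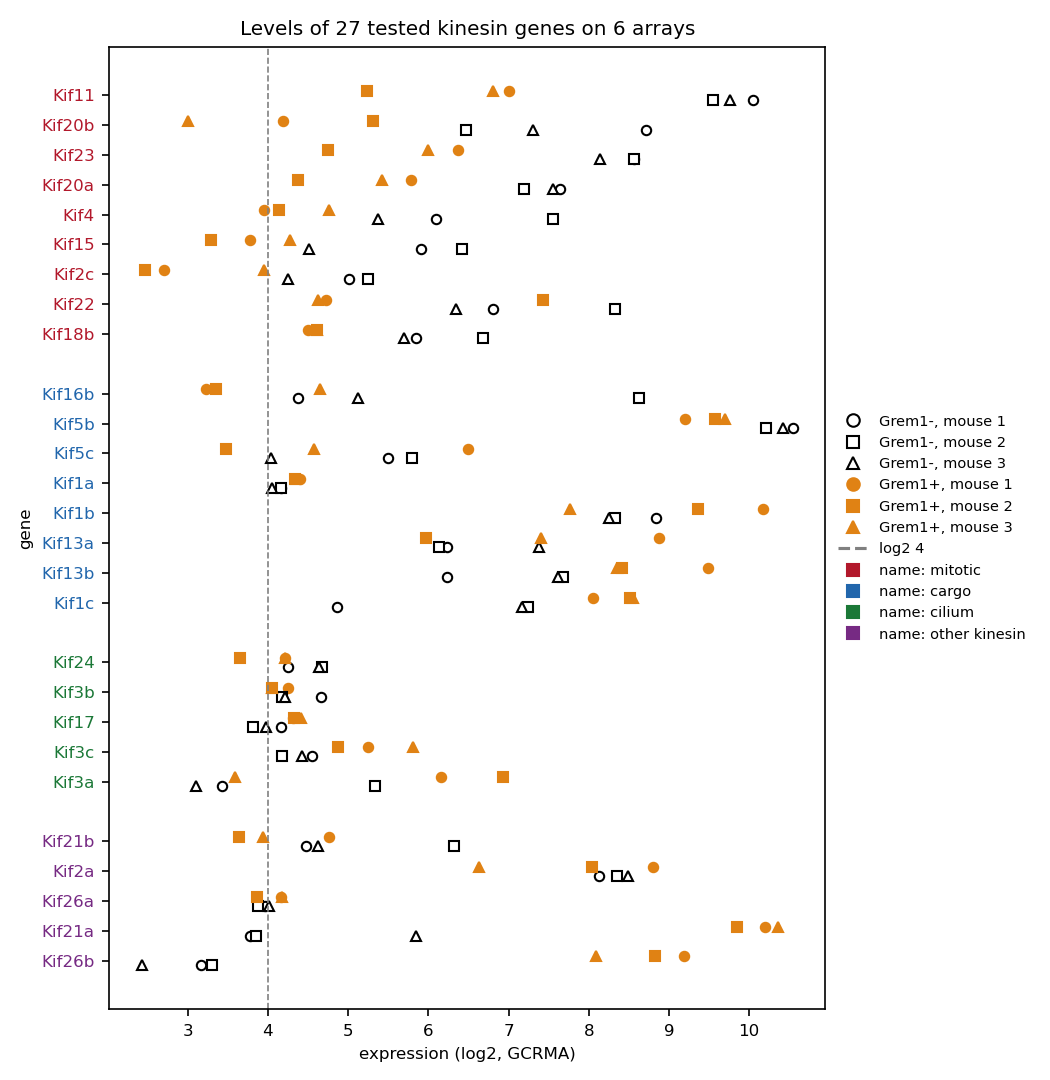
Log2 expression (horizontal axis) of the 27 tested kinesin genes (rows, names coloured by class) on all 6 arrays, open symbols for Grem1- and filled for Grem1+, 1 symbol shape per mouse, with log2 4 dashed. For 8 of the 9 mitotic kinesins the filled symbols lie to the left of all open ones, and for Kif26b and Kif21a to the right.

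Kif11 is the tetrameric motor, also called Eg5, that pushes spindle poles apart. It stood at 10.05, 9.55 and 9.76 in Grem1- and at 7.01, 5.23 and 6.80 in Grem1+ of mice 1, 2 and 3. All Grem1+ arrays lay below all Grem1- arrays, that of mouse 2 farthest. The difference of -3.44 (SE 0.40, limma adjusted p = 0.0159) is 10.8-fold. Its other passing probe sets differed by -2.27 and -1.27 and did not pass when every probe set was tested by itself.

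The central spindle motors are needed for the last step of division. Kif23, a subunit of centralspindlin, was at 8.57, 8.57 and 8.14 in Grem1- and at 6.37, 4.75 and 5.99 in Grem1+. Its groups did not overlap, and it fell by 2.72 (SE 0.46, limma adjusted p = 0.0285). A second Kif23 probe set, at 7.52, 7.28 and 7.64 against 7.43, 6.44 and 6.02, differed by -0.85 only. With shared probe sets left out, that one stands for Kif23, and the call was lost (limma adjusted p = 0.216). Shared here means only a name ending in _s_at, _x_at or _a_at. The tested Kif23 probe set ends in _a_at, and whether it reads other genes was not tested. Kif20a, which brings the chromosomal passenger complex to the midzone, was at 7.65, 7.19 and 7.56 and at 5.78, 4.37 and 5.42. It had no overlap either and fell by 2.27 (SE 0.32, limma adjusted p = 0.0210), on its only probe set.

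Kif18b shortens astral microtubules at their plus ends. It stood at 5.85, 6.68 and 5.70 in Grem1- and at 4.51, 4.61 and 4.62 in Grem1+. The Grem1+ arrays were close together and below all Grem1- arrays, with a difference of -1.50 (SE 0.32, limma adjusted p = 0.0474). That call was just within the threshold and was lost without the filter, with the most variable probe sets, with a trended prior and whenever a mouse was left out, with the block or without it.

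The other 5 tested mitotic kinesins had lower means in Grem1+ but did not pass. Kif20b, a midzone motor of late division, was at 8.71, 6.46 and 7.30 against 4.20, 5.31 and 3.01, with no overlap and a difference of -3.32 (SE 0.80, limma adjusted p = 0.0595). Its second passing probe set gave -3.11. Kif22, a chromokinesin that pushes chromosome arms outward, was at 6.81, 8.33 and 6.34 against 4.72, 7.43 and 4.63. Here mouse 2 was high in both fractions, so the groups overlapped although each mouse had the lower value in Grem1+. The difference of -1.57 (SE 0.35) missed the threshold narrowly (limma adjusted p = 0.0501).

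Kif4, the chromokinesin that works with Prc1 on the midzone, stood at 6.10, 7.55 and 5.37 against 3.95, 4.14 and 4.76. Kif15, which helps Kif11 keep the spindle bipolar, stood at 5.91, 6.42 and 4.51 against 3.77, 3.30 and 4.27. In both genes the groups did not overlap, and mouse 3 showed the smallest gap. Their differences were -2.06 (SE 0.62, limma adjusted p = 0.0943) and -1.83 (SE 0.64, limma adjusted p = 0.129). Kif2c, a depolymerase that frees wrongly attached kinetochores, was at 5.01, 5.25 and 4.25 against 2.71, 2.47 and 3.95. All its Grem1+ arrays were dim, below log2 4, so the difference of -1.79 (SE 0.59, limma adjusted p = 0.111) was -0.84 with dim values set to 4. It was measured on a probe set that other transcripts may share.

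In all, 8 of the 9 tested mitotic kinesins had every Grem1+ array below every Grem1- array, where 19.8% of all genes did. Kif2c is among the 8, and for it the filter fixed this order in advance. A further 3 were not tested: Kif14, a cytokinesis motor, Kif18a, which aligns chromosomes, and the depolymerase Kif2b. They stayed below log2 4 on every array, with highest values of 3.70, 3.98 and 3.18. The 15 passing probe sets of the mitotic genes all had a negative difference, that of Kif2c being fixed by the filter.

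**Figure D2:**
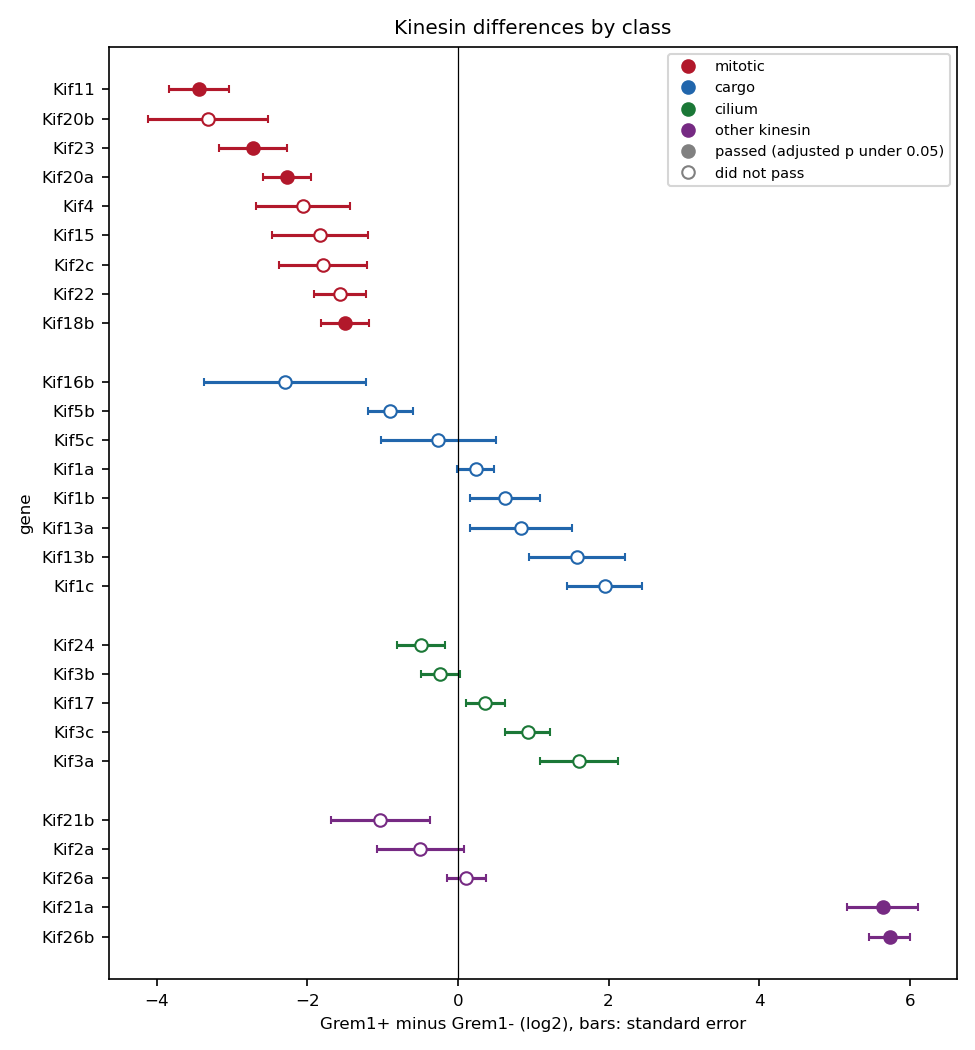
Difference of Grem1+ minus Grem1- (log2, horizontal axis, bars the limma standard error) of the 27 tested kinesin genes by class, filled where the gene passed the test. The 9 mitotic kinesins run from -3.44 to -1.50, the 13 cargo or cilium kinesins from -2.29 to 1.95 with none filled, and Kif21a and Kif26b stand at 5.64 and 5.73.

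Partners of these motors in the spindle were examined beside them. Of 32 tested genes of the spindle and cytokinesis, 10 were lower, 0 higher and 22 did not pass, 31 had a negative difference, and the median was -1.61. Over all genes 8.51% were lower and 11.7% higher, 4871 of 10151 had a negative difference, and the median was 0.04. The lower spindle genes numbered 5 without the filter and, without the block, 2, 3 and 3 when mouse 1, 2 or 3 was left out. In mice 1, 2 and 3 the median of the spindle genes was -1.43, -1.61 and -1.38. Nusap1, which bundles spindle microtubules, fell by 3.63 (SE 0.40), and Cenpe, the kinesin of the kinetochore whose symbol falls outside the Kif rule, by 3.25 (SE 0.69). Mad2l1, a spindle checkpoint protein, fell by 2.42 (SE 0.54, limma adjusted p = 0.0499), and Cenpa, the histone of centromeres, by 2.40 (SE 0.27). A second Cenpe probe set differed by -1.13 and did not pass.

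Markers of blood cells, like the mitotic kinesins, had lower means in Grem1+. Of 15 pan-haematopoietic markers 10 were lower and 0 higher, with medians of -3.95, -3.26 and -2.06 in mice 1, 2 and 3, and no marker was listed at 0. Over all genes 8.51% were lower and 11.7% higher, which are the shares to set beside each count of markers here. The largest falls past the test were those of Ikzf1 (-5.33), Vav1 (-4.46), Itgb2 (-3.94) and Was (-3.94). The median over granulocyte markers went from between 10.82 and 11.19 to between 5.87 and 8.65, and 9 of 12 were lower, led by Mmp8 (-5.73), Ctsg (-5.68), Lcn2 (-4.99) and Mmp9 (-4.86). Erythroid markers had medians of 8.02 to 8.63 and of 3.47 to 4.27. There 3 of 6 were lower, with Hemgn and Gata1 dim on every Grem1+ array, at least 76.3-fold and 1.9-fold lower, and Slc4a1 (-5.83). B lineage markers, at 5.68 to 7.72 and at 3.47 to 3.70, had 4 of 7 lower, namely Vpreb1, Dntt and Cd79b, all dim in Grem1+ and at least 65.7-fold, 13.2-fold and 3.5-fold lower, and Ebf1 (-2.15). Hemgn, Gata1, Vpreb1, Dntt and Cd79b exceeded log2 4 on Grem1- arrays alone, so the filter fixed their direction, though not its size. In all, 3 of 6 erythroid, 4 of 7 B lineage and 1 of 15 pan-haematopoietic markers were dim on every Grem1+ array. The part of these cells in the kinesin differences was not tested. In these sorted fractions fewer dividing cells and less transcript per cell cannot be told apart.

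Both genes that rose belong to the class of others. Kif26b is an unconventional kinesin without normal motor activity, known from kidney development and from Wnt5a and Ror signalling. It stood at 3.17, 3.30 and 2.43 in Grem1- and at 9.18, 8.82 and 8.09 in Grem1+. Every Grem1- array was dim, and the groups were far apart in all 3 mice. As it passed the filter through the Grem1+ arrays alone, its direction, though not its size, was fixed by the filter. The measured difference was 5.73 (SE 0.27, limma adjusted p = 0.00906), and with dim values set to log2 4 Kif26b was at least 26.0-fold higher. It has 1 probe set, so no second measurement stands beside it.

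Kif21a is a kinesin-4 motor that slows microtubule growth at the cell cortex, and its mutations restrict eye movement by harming oculomotor axons. It was at 3.78, 3.85 and 5.85 in Grem1- and at 10.20, 9.84 and 10.36 in Grem1+. Mouse 3 had the highest Grem1- value, still far below all Grem1+ arrays. The difference of 5.64 (SE 0.47, limma adjusted p = 0.0107) was 5.52 with dim values set to 4. A second Kif21a probe set, at 2.50, 2.62 and 5.60 against 9.17, 9.77 and 9.07, differed by 5.77 and also passed when tested by itself (limma adjusted p = 0.0221). Both probe sets showed the same high Grem1- array of mouse 3.

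Their close relatives did not pass. Kif21b, the second kinesin-4 of this pair, was at 4.48, 6.33 and 4.63 against 4.77, 3.64 and 3.94, and differed by -1.03 (SE 0.66, limma adjusted p = 0.345). Kif26a stayed near the limit on all arrays, from 3.86 to 4.17, with 0.11 (SE 0.25, limma adjusted p = 0.798). Kif2a, a depolymerase of neurons and spindles, differed by -0.50 (SE 0.57, limma adjusted p = 0.599), with 4 passing probe sets from -0.76 to 0.35. Its groups overlapped, and the counts and medians given for the mitotic class do not include it. Kif12 and Kif28 were not tested and did not exceed 3.00 and 3.03. Chondrocyte markers rose on the same arrays as Kif21a and Kif26b, with 16 of 19 higher and 0 lower, among them Epyc (7.06), Cytl1 (6.87), Ucma (5.93) and Matn1 (5.64). Over all genes 11.7% were higher and 8.51% lower, for this and the next 2 lists. Of 9 osteoblast markers 6 were higher and 0 lower, with Pth1r at 5.14, Smpd3 at 4.24, Dlx5 at 3.76 and Ibsp at 3.48. Neuron and Schwann cell markers had 2 of 4 tested members higher: S100b, at least 69.6-fold, and Map2 (4.02). S100b exceeded log2 4 on Grem1+ arrays alone, so the filter fixed its direction. Of the members that did not pass, 1 went the other way, at -0.96. The part of these cell types in the 2 kinesin differences was not tested.

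Cargo kinesins showed values in both directions. Kif1c, a kinesin-3 that carries integrins and dense vesicles, stood at 4.87, 7.24 and 7.17 in Grem1- and at 8.06, 8.52 and 8.55 in Grem1+. The groups did not overlap, mouse 1 being lowest in Grem1-. At 1.95 (SE 0.50) the difference missed the threshold (limma adjusted p = 0.0684). Kif13b, a kinesin-3 that binds the polarity protein Dlg1, was at 6.24, 7.68 and 7.61 against 9.49, 8.42 and 8.35, also without overlap, and differed by 1.58 (SE 0.64, limma adjusted p = 0.167). Its other passing probe sets gave 1.46 and 0.43. Kif13a, a motor of recycling endosomes, differed by 0.84 (SE 0.68, limma adjusted p = 0.453), with the other passing probe sets at -0.33 and -0.83.

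The probe sets of Kif1b went apart. This kinesin-3 is made as a short form that carries mitochondria and a long form that carries synaptic vesicle precursors, and the array annotation used here does not say which probe set reads which. The tested probe set differed by 0.63 (SE 0.46, limma adjusted p = 0.412). Another stood at 5.14, 7.30 and 5.92 in Grem1- and at 9.18, 9.11 and 7.67 in Grem1+, all Grem1+ arrays above all Grem1- arrays, with a difference of 2.53 (limma adjusted p = 0.0546 over probe sets). A further one was at 8.44, 8.17 and 7.41 against 4.97, 7.80 and 6.58, lower in Grem1+ within each mouse, with a difference of -1.56 (limma adjusted p = 0.210 over probe sets). The remaining 3 passing probe sets gave 1.66, 1.22 and 0.06. Kif1b was the gene with the widest spread among the 14 kinesins that had at least 2 passing probe sets.

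**Figure D3:**
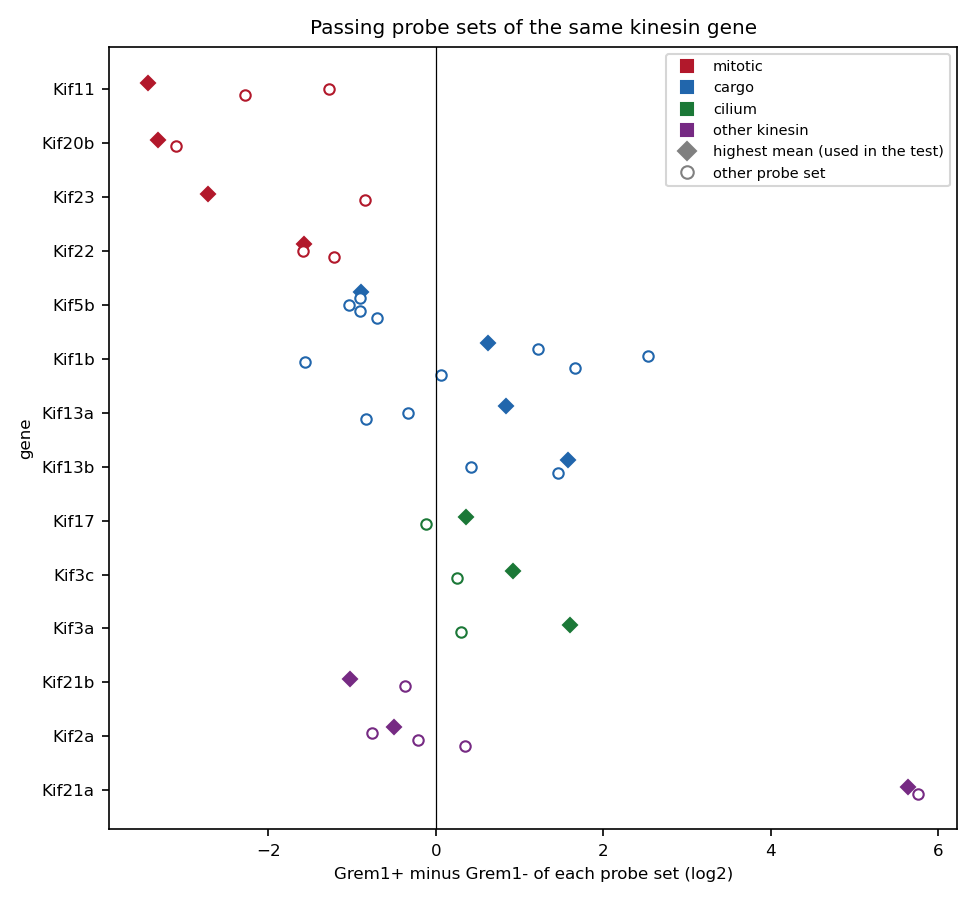
Difference of Grem1+ minus Grem1- (log2, horizontal axis) of every passing probe set of the 14 kinesin genes with 2 or more, diamonds for the probe set used in the test and open circles for the others. Probe sets of the 4 mitotic genes all lie below 0, those of Kif1b run from -1.56 to 2.53, and the pair of Kif21a lies at 5.64 and 5.77.

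Kinesin-1 drives much of the long-range transport in cells. Its ubiquitous heavy chain Kif5b was at 10.54, 10.21 and 10.41 in Grem1- and at 9.20, 9.57 and 9.70 in Grem1+. The groups were apart by little, with a difference of -0.90 (SE 0.29, limma adjusted p = 0.113) and 5 passing probe sets from -1.04 to -0.70. Kif5c, a heavy chain enriched in neurons, differed by -0.26 (SE 0.77, limma adjusted p = 0.853), and Kif5a, the other neuronal one, did not exceed 3.90 and was not tested. Kif16b, a motor of early endosomes, was at 4.38, 8.62 and 5.12 against 3.24, 3.35 and 4.65. Its difference of -2.29 (SE 1.08, limma adjusted p = 0.217) was -0.80 without mouse 2, whose Grem1- array was the high one. Kif1a, a neuronal motor of synaptic vesicle precursors, stayed between 4.06 and 4.40, with 0.23 (SE 0.25, limma adjusted p = 0.569).

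Light chains and adaptors link these motors to their load. Of 15 tested, 3 were higher and 1 lower, where 11.7% and 8.51% of all genes were, with a median of 0.32. The lower call, that of Madd, was lost without the filter, and 1 gene was higher with the stricter filter. Without the block, 1, 0 and 2 were higher and 0, 1 and 0 lower when mouse 1, 2 or 3 was left out. Kifap3, the accessory subunit of the Kif3a and Kif3b motor, was at 6.66, 6.16 and 4.47 in Grem1- and at 9.04, 8.63 and 8.01 in Grem1+. It rose in each mouse without overlap, by 2.80 (SE 0.36, limma adjusted p = 0.0181). A second Kifap3 probe set was at 4.79, 7.42 and 6.03 against 4.48, 7.50 and 11.11 and differed mainly in mouse 3 (limma adjusted p = 0.419 over probe sets). Klc1, a kinesin-1 light chain, rose by 2.18 (SE 0.33), and Fez2, a kinesin-1 adaptor, by 1.54 (SE 0.30). Madd, a Rab3 exchange factor that binds Kif1b and Kif1a, fell by 2.98 (SE 0.48). Dynein and dynactin form the motor complex of the opposite direction. Of 18 tested genes, 1 was higher and 0 lower, beside the same 11.7% and 8.51% of all genes, and the median was -0.06. The higher gene was the intermediate chain Dync1i1, dim on every Grem1- array and at least 2.5-fold higher, its direction being fixed by the filter.

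Of the kinesins of the cilium, Kif3a and Kif3b form the anterograde motor with Kifap3. Kif3a was at 3.43, 5.34 and 3.10 in Grem1- and at 6.16, 6.93 and 3.60 in Grem1+. It was higher in Grem1+ within each mouse, but the groups overlapped and mouse 3 was dim in both fractions. Its difference of 1.61 (SE 0.52, limma adjusted p = 0.108) was 1.25 with dim values set to 4, and its second passing probe set gave 0.30. Kif3b, measured on a probe set that other transcripts may share, lay between 4.05 and 4.66 and differed by -0.23 (SE 0.26, limma adjusted p = 0.580). Kif3c, a neuronal partner of Kif3a, was at 4.56, 4.18 and 4.42 against 5.25, 4.88 and 5.80. Its groups did not overlap, and the difference was 0.93 (SE 0.30, limma adjusted p = 0.107).

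The remaining cilium kinesins were near or below the limit. Kif17, a homodimeric kinesin-2 of cilia and dendrites, differed by 0.36 (SE 0.26, limma adjusted p = 0.395) and Kif24, which keeps centrioles from growing cilia, by -0.49 (SE 0.32, limma adjusted p = 0.353). Kif7, the kinesin of the ciliary tip that regulates Gli proteins, was at 3.65, 3.75 and 3.90 in Grem1- and at 3.93, 3.89 and 4.36 in Grem1+. It exceeded log2 4 on 1 array and was not tested, as was Kif27, its relative of motile cilia, with 4.58 on the Grem1+ array of mouse 1 and at most 3.19 elsewhere. Kif6 and Kif9, both of motile cilia and flagella, did not exceed 3.06 and 3.97. Across cargo and cilium kinesins together, 5 of 13 had every Grem1+ array above every Grem1- array, where 23.2% of all genes did. Every one lay below in 2 of 13, where 19.8% of all genes did so.

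Other genes of the cilium were examined beside its kinesins. Of 18 tested genes of intraflagellar transport and ciliary trafficking, 4 were higher and 0 lower, with a median of 1.21. Over all genes 11.7% were higher and 8.51% lower. Ift74, a core subunit of the transport train, was at 3.81 to 5.09 in Grem1- and at 8.00 to 9.27 in Grem1+ and rose by 4.36 (SE 0.42, limma adjusted p = 0.0126). Tulp3, which brings receptors into the cilium, was dim in Grem1- and at least 3.3-fold higher, Arl3, a ciliary GTPase, rose by 2.22 (SE 0.28) and Ift57 by 1.43 (SE 0.29). In the Hedgehog list, 5 of 9 tested genes were higher and 0 lower, with a median of 4.03. Ptch1, the receptor and target, rose by 5.75 (SE 0.73), Cdon, a co-receptor, by 4.03 (SE 0.56), and Hhip and Gli3, a binding protein and an effector, were at least 21.9-fold and 19.7-fold higher. Tulp3, Hhip and Gli3 exceeded log2 4 on Grem1+ arrays alone, so the filter fixed their direction, though not its size. The difference between these lists and the cilium kinesins was not tested.

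**Figure D4:**
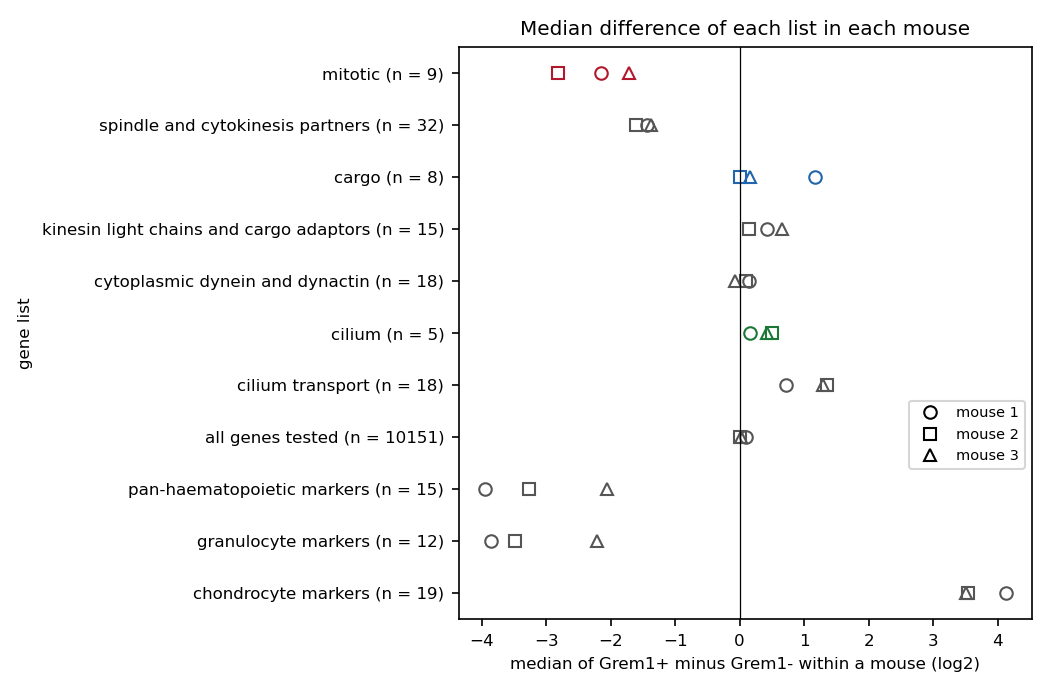
Median over the tested genes of each list (rows) of the difference Grem1+ minus Grem1- within a mouse (log2, horizontal axis), 1 symbol per mouse. Mitotic kinesins lie at -2.15, -2.82 and -1.72 beside their spindle partners at -1.43, -1.61 and -1.38, cargo kinesins at 1.16, 0.01 and 0.16, and pan-haematopoietic markers at -3.95, -3.26 and -2.06.

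Each passing named probe set was also tested by itself over all 18157 of them, of which 10.1% were higher and 7.76% lower. Of the 54 passing kinesin probe sets, 3 were higher, those of Kif21a and Kif26b, and 3 were lower, those of Kif11, Kif20a and Kif23. Endothelial markers, tested for 3 of 10 genes, had 0 calls and a median of -1.50, with Tek at -2.81 (limma adjusted p = 0.0649) and Pecam1 at -1.50 (limma adjusted p = 0.0587), both dim on every Grem1+ array. The filter thus fixed the direction of Tek and Pecam1, and the median is the value of Pecam1. The other tested marker did not fall and differed by 0.11.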

How the data were processed

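RNA of the 6 sorted fractions was amplified by the Ovation One-Direct method of NuGEN, labelled with biotin and hybridised to Affymetrix arrays, per the labels' protocols. The deposited values are log2 expression per probe set made by GCRMA, per the submitters' processing notes, with version and settings not given in the sources used here. That they are log2 was inferred from their range. Scanner files were not analysed here. Of 45101 probe sets, 34945 had 1 gene symbol in the platform annotation, and the others were not tested. Each gene is represented by whichever of its passing probe sets averaged highest. Where a gene exceeded log2 4 only on the 3 arrays of 1 fraction, the filter fixed the direction of its difference. Mice were paired by the number in the titles, since the design text says that both fractions came from the same animals. The deviations of a mouse's arrays correlated at 0.014 to 0.074. Tests used limma 3.58.1 in R 4.3.3, two-sided, with Benjamini-Hochberg adjustment. In the main fit p-values rest on the spread of the within-mouse differences of 3 mice, moderated by limma towards a spread shared by all genes. The number of arrays limits the precision. Simulated data of the same 10151 genes had 200 genes changed. Of those changed by log2 1, 2% were recovered, with 20% at log2 2, 94% at log2 4 and 96% at log2 6. False calls numbered 5. The main test called 2055 genes, and the adjusted threshold depends on how many genes change. These recovery shares therefore need not hold for it. Members, classes and lists were chosen with earlier results of these data known. Every member is named. Other genes named are Grem1, Ptprc, Pecam1, up to 4 called members of each list with the largest differences, or up to 2 where none passed, and Xist, chosen after its values were seen. Promoter windows come from a RefSeq table of GRCm38.p6. No protein sequences were used here. Alternatives changed the block, filter, probe set, normalization, floor, prior and mice.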

Additional observations from a re-analysis of the deposited data

How the results depend on the processing

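Kif21a and Kif26b kept their calls under every alternative that kept all 3 mice, and without the replicate block also with any mouse left out. The count of lower mitotic kinesins, which is also that of all lower kinesins, was 4. It became 7 without the replicate block, 2 without the filter on dim probe sets and 2 without shared probe sets. In the last case Kif20a has no probe set left, since its only one ends in _a_at. Whether that one reads other genes was not tested. With the block kept and any mouse left out, the lower and the higher kinesins both numbered 0, with 8 to 12 kinesins at an unadjusted p under 0.05 in limma. Such a fit has 1 residual degree of freedom. With neither block nor that mouse, 3 to 5 kinesins were lower and 2 higher. As mice were left out the mitotic median ranged from -2.63 (without mouse 3) to -1.90 (without mouse 2). It was -1.81 without the filter, -1.83 with the mean of probe sets and without shared probe sets, and -2.72 with the stricter filter, at which 1 cargo or cilium kinesin was higher. That gene was Kif1c, also higher (1 gene) with the mean of probe sets. The cargo or cilium median was 0.84 with the stricter filter and -0.12 with the most variable probe sets. Sign changes were limited to uncalled genes: Kif13a at -0.11 with the mean of probe sets, -0.33 with the most variable one and from -0.067 (without mouse 1) to 1.34 as mice were left out, Kif17 at -0.12 with the most variable probe set, Kif5c from -0.89 to 0.77 (without mouse 2) and Kif2a from -1.09 to 0.18 (without mouse 3). The cause of these changes was not tested. Kif20b and Kif22 gained calls with the stricter filter and with the mean of probe sets. Testing each probe set by itself was added after seeing the data and gave 3 lower and 2 higher kinesins. Signal near log2 4 limits what can be said of Kif1a, Kif3b, Kif17, Kif24 and Kif26a.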
